A study of Mus musculus with 45 samples.

Results

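Meningeal macrophages (mMΦ) were compared between postnatal day 21 (P21) and postnatal day 10 (P10), 3 libraries at each age. These 6 libraries, out of 45 in the series, were taken by their labels for population and age, and every gene was considered. The series holds bulk RNA sequencing of mMΦ, perivascular macrophages (pvMΦ) and microglia sorted from mouse brains at 5 ages. All of its mice were C57BL/6J, carried Cx3cr1GFP/wt and were untreated, so that the P21 and the P10 group alike had GFP in 1 allele of Cx3cr1, the fractalkine receptor gene. Per the series' design each library was made from an individual mouse. The gates of the sort are not given in the labels, and all 6 libraries belonged to sequencing batch S232.

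The meninges that wrap the brain hold long-lived macrophages along their vessels and in the subarachnoid space, which lie outside the parenchyma where microglia live. Like microglia they descend largely from embryonic precursors, depend on the receptor Csf1r and take up debris and protein from the fluid around them, but they are recognised by the mannose receptor gene Mrc1, by Lyve1, Pf4, Cd163 and Ms4a7. The weeks between P10 and P21 span eye opening, myelination and weaning.

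Total counts of the 6 libraries ran from 17557385 to 26428491. Libraries of 1 age scattered far beyond counting error (chi-square of 42.4 to 202 over its degrees of freedom), and this scatter was wider at P21 (common dispersion of edgeR 1.07) than at P10 (0.218). The P21 replicate 1 held Xist at 14.3 CPM (counts scaled to library size) beside 187 CPM of Y-linked transcripts, whereas the other 5 libraries had at most 0.0473 CPM of Xist. Replicate 1 at P21 also had more oligodendrocyte transcripts than the other libraries, as given below.

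The cells carried the genes that their label implies at both ages. Mrc1 was at 3267, 4014 and 3623 CPM in the P21 libraries and at 3424, 3424 and 3543 CPM in the P10 libraries. Lyve1, the hyaluronan receptor, was at 1631, 2082 and 2563 CPM at P21 and at 2329, 2251 and 2423 CPM at P10. Both overlapped between the ages (log2 fold change, P21 over P10, of 0.07 ± 0.11 and −0.16 ± 0.17, SE). Ms4a7, a membrane gene that sets border macrophages apart from microglia, averaged 1503 ± 193 CPM at P21 and 1736 ± 120 CPM at P10 (SD, n = 3 each). Sall1, a transcription factor that defines microglia, stayed at or below 3.69 CPM in the P21 and 0.939 CPM in the P10 libraries. Other microglial genes, P2ry12, Siglech and Tmem119, were detected at both ages and were higher at P21 without overlap. Of the border macrophage genes, Cd163 and F13a1 were higher at P21 and Pf4 lower, as given below. Ccr2, the chemokine receptor of monocytes, averaged 18.7 ± 8.37 CPM at P21 and 8.57 ± 5.16 CPM at P10.

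Of 12089 genes tested, 10 (0.0827%) changed between the ages, 9 of them higher at P21 (0.0744%) and 1 lower (0.00827%). All 10 reached the same adjusted p of 0.0422 in the quasi-likelihood test of edgeR with Benjamini-Hochberg adjustment, and at an unadjusted p under 0.05 there were 970. Among the genes that rose were Vcam1, Cd81 and Vsir of the cell surface, C4b of the complement system, the chemokine gene Ccl6, the lysosomal genes Ctss and Lyz2, and the transcription factor gene Klf9. The gene that fell was Pf4, another chemokine gene. In bulk samples fewer cells of a type and less RNA per cell cannot be told apart. Leaving out any 1 of the 6 libraries ended all 10 calls, at adjusted p values of 0.0720 to 0.473, while each fold change kept its direction (log2 fold change of 3.23 to 3.60 for Vcam1 and of −1.12 to −0.99 for Pf4).

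**Figure D1:**
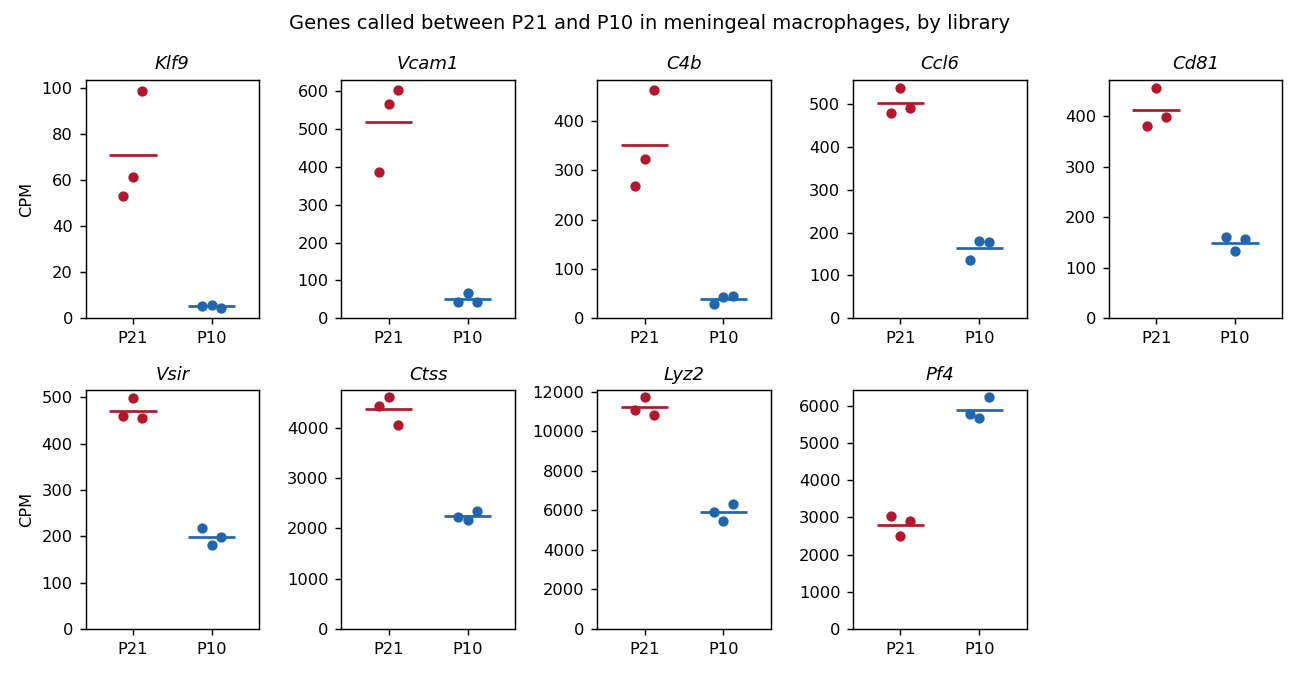
CPM of 9 of the 10 genes called between P21 (red, left) and P10 (blue, right) in mMΦ; each point is 1 library, the bar is the mean of 3, and each panel has its own axis from 0. None of them overlaps between the ages, and Pf4 is the single gene with lower P21 values (2487 to 3042 CPM, against 5665 to 6228 CPM at P10).

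Among surface molecules the widest change was that of Vcam1, the adhesion molecule that binds integrin α4β1 on leukocytes. Vcam1 was at 387, 568 and 603 CPM in the P21 libraries, against 42.3, 66.3 and 43.8 CPM in the P10 libraries. Every P21 library thus stood well above every P10 library, a 10.2-fold difference (log2 fold change 3.36 ± 0.27). Cd81, a tetraspanin that organises receptors in the membrane, was at 381, 456 and 398 CPM at P21, against 160, 133 and 156 CPM at P10. Its 2.76-fold rise (1.46 ± 0.15) was more even across libraries than that of Vcam1. Vsir encodes VISTA, an inhibitory checkpoint ligand of myeloid and T cells. It was at 459, 499 and 456 CPM at P21, against 218, 180 and 198 CPM at P10, a 2.38-fold rise (1.25 ± 0.14). Cd81 and Vsir were also higher at P21 in microglia, as given below.

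C4b, which encodes complement component 4 of the classical pathway, was at 268, 323 and 462 CPM at P21, against 27.9, 42.5 and 44.4 CPM at P10. The groups did not overlap and differed 9.18-fold (log2 fold change 3.20 ± 0.29). Its level is uncertain, since C4a is a near-identical copy with which reads can be shared. The chemokine gene Ccl6, a CC chemokine made by myeloid cells of rodents, was at 480, 538 and 492 CPM at P21, against 136, 179 and 179 CPM at P10, a 3.06-fold rise (1.61 ± 0.16). Pf4 encodes platelet factor 4, or CXCL4, and is a marker of border macrophages in the mouse brain. It fell to 3042, 2487 and 2893 CPM in the P21 libraries, against 5776, 5665 and 6228 CPM in the P10 libraries (log2 fold change −1.07 ± 0.11).

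The lysosomal genes Ctss and Lyz2 were already abundant at P10. Ctss encodes cathepsin S, the protease that trims the invariant chain of MHC class II. It was at 4449, 4627 and 4052 CPM at P21, against 2223, 2178 and 2351 CPM at P10 (1.95-fold, log2 fold change 0.96 ± 0.11). Lyz2, the macrophage lysozyme gene, was at 11072, 11755 and 10839 CPM at P21, against 5893, 5449 and 6338 CPM at P10 (1.91-fold, 0.93 ± 0.10), and may share reads with its close copy Lyz1. For both the 3 P21 libraries lay close together and apart from the P10 libraries.

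Klf9, a zinc finger transcription factor whose gene responds to glucocorticoid and thyroid hormone, showed the greatest fold change of the 10. It was at 53.3, 61.2 and 99.0 CPM at P21, against 5.52, 5.73 and 4.53 CPM at P10. The 3 P10 libraries were close together and the P21 libraries spread over a wider range, for a 13.5-fold rise (log2 fold change 3.76 ± 0.37).

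Sequence upstream of the start was at hand in RefSeq (GRCm38.p6) for 7 of the 10 genes, namely Ccl6, Cd81, Ctss, Klf9, Lyz2, Pf4 and Vsir. The 250 bases before each start were searched on both strands for 7 short motifs: GAGGAAG (the core bound by PU.1), TTGCNNAA (C/EBP), GGGNNNTCC (NF-κB), TTTC, any 2 bases and TTTC (interferon response), TCACGTGA (the lysosomal CLEAR element), ACANNNTGT (the core of steroid receptor sites) and TGCTGANNC (MAF). Of 32851 mouse promoters of that length, 10.6%, 9.56%, 15.2%, 2.98%, 0.785%, 5.84% and 4.31% held them in that order. Matches stood in 3 of the 7 promoters, those of Ctss, Lyz2 and Pf4, which are shown to set 2 lysosomal genes that rose beside the gene that fell. Capitals mark the matches, the coordinates are chr3:95526536-95526785 on the plus strand for Ctss, chr10:117282273-117282522 on the minus strand for Lyz2 and chr5:90772185-90772434 on the plus strand for Pf4, and each run reads 5′ to 3′ towards the gene.
Ctss: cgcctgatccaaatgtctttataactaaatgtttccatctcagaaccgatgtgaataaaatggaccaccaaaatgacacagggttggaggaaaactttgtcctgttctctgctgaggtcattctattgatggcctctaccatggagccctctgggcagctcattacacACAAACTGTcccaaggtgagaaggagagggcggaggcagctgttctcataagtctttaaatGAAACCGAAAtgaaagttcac
Lyz2: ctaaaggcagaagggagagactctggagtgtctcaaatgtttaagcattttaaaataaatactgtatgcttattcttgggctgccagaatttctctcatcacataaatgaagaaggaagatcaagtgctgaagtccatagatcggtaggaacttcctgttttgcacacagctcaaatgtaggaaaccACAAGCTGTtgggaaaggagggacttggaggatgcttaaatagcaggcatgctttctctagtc
Pf4: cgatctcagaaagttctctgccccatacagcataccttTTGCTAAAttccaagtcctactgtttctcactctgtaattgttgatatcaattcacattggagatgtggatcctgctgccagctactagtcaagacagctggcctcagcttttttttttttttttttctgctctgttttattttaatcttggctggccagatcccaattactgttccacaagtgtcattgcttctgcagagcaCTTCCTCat
In Ctss the interferon response motif began 21 bases before the start, on the reverse strand, and the steroid receptor core 82 bases before it. Lyz2 had the steroid receptor core at 63 bases. Pf4 had the PU.1 core on the reverse strand at 9 bases and the C/EBP motif at 212 bases. The lysosomal, NF-κB and MAF motifs were not in these windows of any of the 7 genes. A match of this kind describes the letters only.

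**Figure D2:**
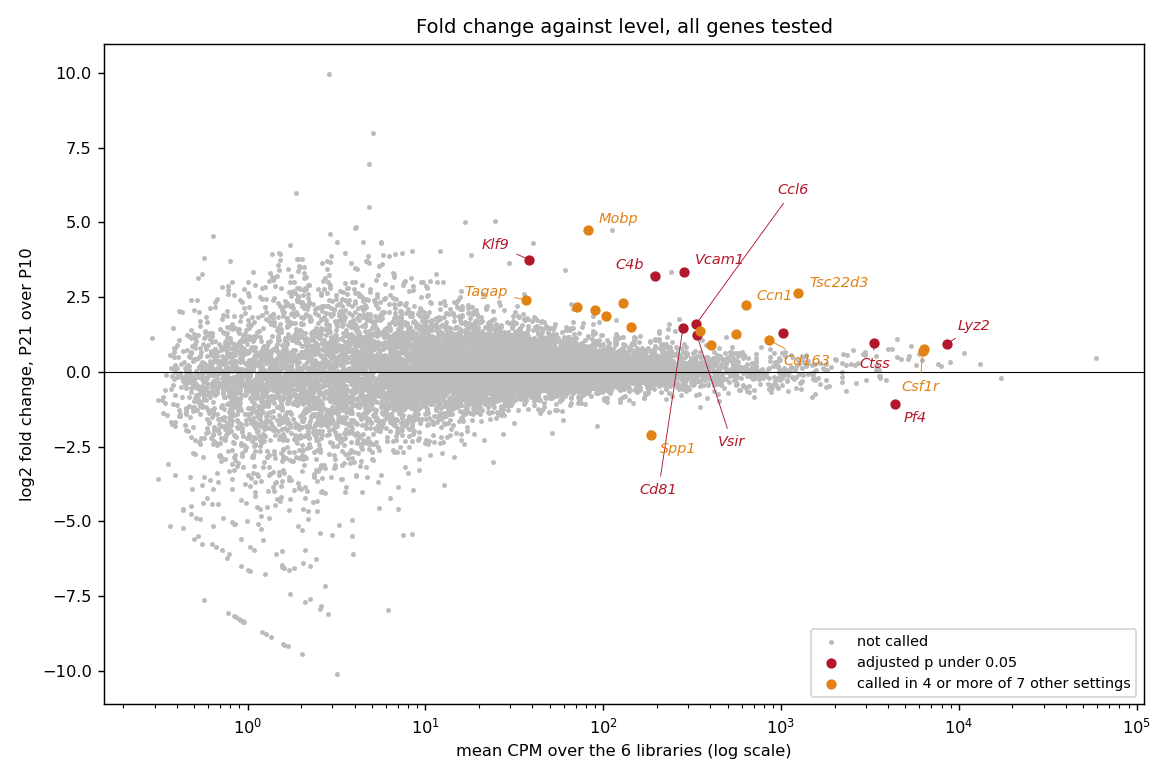
Log2 fold change (P21 over P10) against mean CPM over the 6 libraries (log scale) for the 12089 genes tested, with the 10 called genes in red and 16 named genes called in at least 4 of 7 other settings in orange. Genes at low level scatter widely without being called, and the called genes lie at middle to high levels, from Klf9 to Lyz2.

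A wider group of genes missed the threshold in the 6 libraries, at edgeR adjusted p values of 0.0521 to 0.163, but passed it under other settings. Under 7 other settings of filter, scaling, test or libraries, 27 genes (0.223%) were called in at least 4, of which 17 missed the threshold in the 6 libraries alone, and they were chosen after their values were seen. The 7 settings leave out the replicate block, under which no gene was called. Cd163, the scavenger receptor for haemoglobin and haptoglobin, was at 1036, 1224 and 1232 CPM at P21 and at 561, 546 and 563 CPM at P10, with an adjusted p of 0.0521 (edgeR, log2 fold change 1.07 ± 0.12). Every P21 library lay above every P10 library. Thbd, or thrombomodulin, which switches thrombin to the activation of protein C, averaged 216 ± 50.0 CPM at P21 and 44.0 ± 12.5 CPM at P10 (SD, n = 3 each; 2.30 ± 0.28). Tagap, a GTPase-activating protein of leukocytes, averaged 61.7 ± 3.21 CPM at P21 and 11.6 ± 2.64 CPM at P10 (2.42 ± 0.30). Tsc22d3, which encodes the glucocorticoid-induced protein GILZ, was at 2312, 2885 and 1280 CPM at P21 and at 267, 290 and 482 CPM at P10 (2.64 ± 0.37). Axl, a receptor tyrosine kinase for apoptotic cells, was at 100, 160 and 175 CPM at P21 and at 38.9, 40.1 and 25.8 CPM at P10 (2.06 ± 0.30). The groups did not overlap in any of these genes.

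Spp1, which encodes osteopontin, was the 1 gene of the 17 with lower values at P21, at 75.7, 68.9 and 63.8 CPM, against 205, 399 and 306 CPM at P10 (log2 fold change −2.12 ± 0.26). Csf1r, the receptor that these macrophages need to survive, averaged 7703 ± 876 CPM at P21 and 4805 ± 250 CPM at P10 (0.68 ± 0.11, edgeR adjusted p 0.163). Tmem119, usually listed as a microglial gene, averaged 117 ± 10.7 CPM at P21 and 25.8 ± 9.06 CPM at P10. Selplg, the selectin ligand PSGL-1, averaged 212 ± 30.3 CPM at P21 and 74.8 ± 11.1 CPM at P10 (1.51 ± 0.19). Cst3, the protease inhibitor cystatin C, averaged 7960 ± 198 CPM at P21 and 4713 ± 511 CPM at P10 (0.76 ± 0.11). Mobp, a myelin gene, was at 280, 144 and 52.3 CPM at P21 and at 5.85, 6.06 and 5.80 CPM at P10. Its log2 fold change was 4.07 to 5.16 when each library was left out in turn. The others named were Ccn1, Trpv4, Gpx3, Ccl9 and Itgb5, all with higher P21 values and log2 fold changes of 0.91 to 2.23.

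The other ages of mMΦ place the P10 and P21 values in a longer course, given as a description over 3 libraries at each age. Lyz2 averaged 1616 ± 151 CPM at E14.5, 2495 ± 572 at P3, 5893 ± 444 at P10, 11222 ± 476 at P21 and 23448 ± 1278 at P56. Ctss likewise had a higher mean at each later age, 627 ± 51.0, 1416 ± 157, 2250 ± 89.6, 4376 ± 294 and 6143 ± 531 CPM. For Cd81 the P10 level of 150 ± 14.4 CPM lay below the 266 ± 35.2 CPM at E14.5, and the mean at P56 was 1045 ± 139 CPM. Vcam1, C4b, Ccl6 and Vsir had P56 libraries that overlapped those at P21. C4b averaged 1.25 ± 1.66, 21.2 ± 6.14, 38.3 ± 9.07, 351 ± 100 and 333 ± 56.3 CPM from E14.5 to P56. Vcam1 averaged 13.9 ± 3.91, 52.8 ± 52.8, 50.8 ± 13.4, 519 ± 116 and 412 ± 103 CPM over the same ages. Klf9 was highest at P21, at 71.2 ± 24.4 CPM, beside 25.2 ± 20.0 CPM at P56 and 0.445 ± 0.352 CPM at E14.5. Pf4 was highest at P10, with 2322 ± 150 CPM at E14.5, 4650 ± 167 at P3, 5890 ± 298 at P10, 2807 ± 287 at P21 and 3431 ± 1263 at P56.

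**Figure D3:**
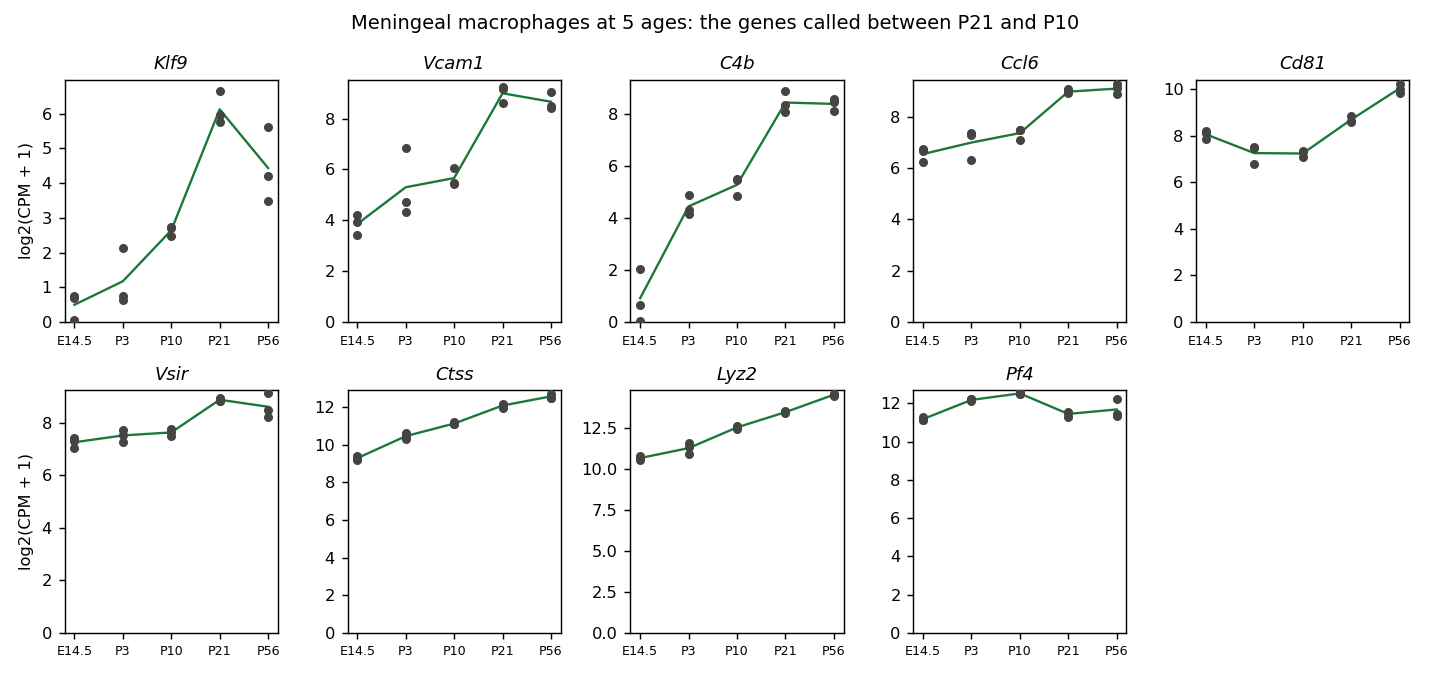
Log2(CPM + 1) of 9 of the 10 called genes in mMΦ at E14.5, P3, P10, P21 and P56, each point 1 library and the line the mean of 3. Lyz2 and Ctss are higher at each later age, whereas Klf9 peaks at P21 (71.2 CPM) and Pf4 at P10 (5890 CPM).

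Gene lists were read by how many of their tested members were called, by how many had no overlap between the libraries of the ages (7.64% of all genes were higher at P21 and 9.06% lower in this sense), and by their median log2 fold change beside the 0.02 of all genes. No list had more than 2 called members. In the lysosome list, of which Lyz2 is not a member, 2 of 36 tested members rose, Ctss among them. Of the 36, 17 were higher without overlap and none lower, and the median was 0.28. Examples below the threshold were Ctsb, a cysteine protease, at 14321 ± 133 CPM at P21 and 11858 ± 730 CPM at P10, and Ctsd, the aspartic protease cathepsin D, at 3546 CPM at P21 and 2375 CPM at P10 (edgeR log2 fold change 0.58 ± 0.10, adjusted p 0.167). The sum over the list was 60750, 63109 and 56884 CPM at P21 and 49546, 49542 and 47373 CPM at P10.

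Of 15 complement genes tested, C4b rose and none fell. The 3 chains of C1q, which opens the classical pathway, did not overlap between the ages: C1qb averaged 13066 ± 867 CPM at P21 and 8414 ± 911 CPM at P10 (log2 fold change 0.64 ± 0.12, edgeR adjusted p 0.214). The list median was 0.25.

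Chemokines and cytokines had 1 member that rose, Ccl6, and 1 that fell, Pf4, of 29 tested, with a median of −0.39. Ccl2, the ligand of Ccr2, was at 342, 1163 and 1737 CPM at P21 and at 1526, 2156 and 2088 CPM at P10, and Ccl7 was at 620, 1264 and 2257 CPM at P21 and at 1563, 1803 and 1577 CPM at P10. The P21 libraries thus differed widely from each other, and the groups overlapped. The list sum at P21 was 7696, 9395 and 14604 CPM, against 14132, 15678 and 16174 CPM at P10.

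Among 29 border macrophage markers tested, Pf4 fell and none rose, with 10 members higher and 6 lower without overlap and a median of 0.16. F13a1, a transglutaminase of tissue macrophages, averaged 4056 ± 434 CPM at P21 and 2792 ± 321 CPM at P10, and Timd4, a phosphatidylserine receptor of resident macrophages, averaged 181 ± 19.7 CPM at P21 and 103 ± 22.2 CPM at P10. Maf, a transcription factor of these cells, averaged 555 ± 110 CPM at P21 and 770 ± 55.7 CPM at P10. The list sum was 33746, 34115 and 34412 CPM at P21 and 37235, 35424 and 36193 CPM at P10, lower at P21 without overlap. The mean of the sum went from 36284 CPM at P10 to 34091 CPM at P21. Pf4 alone, at 3042, 2487 and 2893 CPM at P21 and 5776, 5665 and 6228 CPM at P10, fell by more than that. The lower sum thus rests on Pf4.

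Microglia markers had a median of 1.14 over 21 tested members, of which 1 rose and none fell, and 12 of 21 were higher without overlap. P2ry12, the purinergic receptor that senses ATP, averaged 563 ± 117 CPM at P21 and 328 ± 27.6 CPM at P10, and Siglech, a sialic acid lectin, averaged 158 ± 32.6 CPM at P21 and 79.7 ± 19.9 CPM at P10 (edgeR adjusted p 0.314 and 0.361). The list sum was 17508, 18196 and 17236 CPM at P21 and 11444, 10023 and 11428 CPM at P10 in mMΦ. In microglia of the same batch it was 166499 ± 4737 CPM at P21 and 111797 ± 2135 CPM at P10 (SD, n = 3 each). Sall1, the defining member, was at 0.199, 2.0 and 3.69 CPM at P21 and at 0.540, 0.237 and 0.939 CPM at P10. The part of microglia within the sort in these values was not tested further.

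Cholesterol synthesis genes had no called member of 22 tested, but 11 of 22 were higher without overlap, none was lower, and the median was 0.86. Cyp51, the lanosterol demethylase, averaged 117 CPM at P21 and 37.5 CPM at P10 (log2 fold change 1.64 ± 0.50, edgeR adjusted p 0.413). Srebf2, the transcriptional regulator of the pathway, averaged 123 CPM at P21 and 61.5 CPM at P10 (1.0 ± 0.27). The sum was 1150, 1082 and 1448 CPM at P21 and 722, 639 and 679 CPM at P10.

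Growth factor genes had no call among 18 tested and a median of −0.56. Igf1, the insulin-like growth factor, was at 301, 162 and 267 CPM at P21 and at 396, 423 and 434 CPM at P10 (log2 fold change −0.78 ± 0.23, edgeR adjusted p 0.399). Bmp2, a bone morphogenetic protein, averaged 158 ± 84.9 CPM at P21 and 294 ± 48.8 CPM at P10. Cell cycle genes had no call among 39 tested and a median of −0.39, with 3 members lower without overlap. Their sum was 709, 642 and 760 CPM at P21 and 954, 821 and 742 CPM at P10, so that the ages overlapped. Mki67, the proliferation marker, was at 1.91, 0.118 and 7.17 CPM at P21 and at 12.6, 6.68 and 12 CPM at P10.

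MHC class II genes had no call among 8 tested and a median of 0.81. H2-Aa was at 234, 56.5 and 118 CPM at P21 and at 82.9, 61.1 and 30.2 CPM at P10, and Cd74, the invariant chain, was at 876, 256 and 757 CPM at P21 and at 483, 458 and 255 CPM at P10. Replicate 2 at P21 was low for both and overlapped with P10. The list sum in mMΦ was 18800 CPM at P56, far above both ages. MHC class I genes (20 tested, median 0.26) and interferon response genes (33 tested, median 0.51) had no call either. H2-D1, a class I heavy chain, averaged 2695 ± 131 CPM at P21 and 1787 ± 77.6 CPM at P10 (0.60 ± 0.11, edgeR adjusted p 0.191). B2m, the light chain, overlapped between the ages (−0.13 ± 0.14).

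Oxidative phosphorylation genes had a median of −0.18 over 27 tested, with 8 lower and none higher without overlap and no call. Glycolysis genes had a median of −0.01 over 21. The macrophage core list (18 tested), scavenger receptors (18), lipid transport (22), iron handling (18), matrix remodelling (19), Fc and pattern receptors (28) and macrophage transcription factors (30) had no call, with medians of −0.03 to 0.63. Apoe, the lipid carrier and the most abundant of the genes followed, was at 65595, 76834 and 63885 CPM at P21 and at 53600, 45867 and 50638 CPM at P10 (log2 fold change 0.46 ± 0.11, edgeR adjusted p 0.314). Trf, which encodes transferrin, averaged 6226 ± 483 CPM at P21 and 4307 ± 288 CPM at P10.

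**Figure D4:**
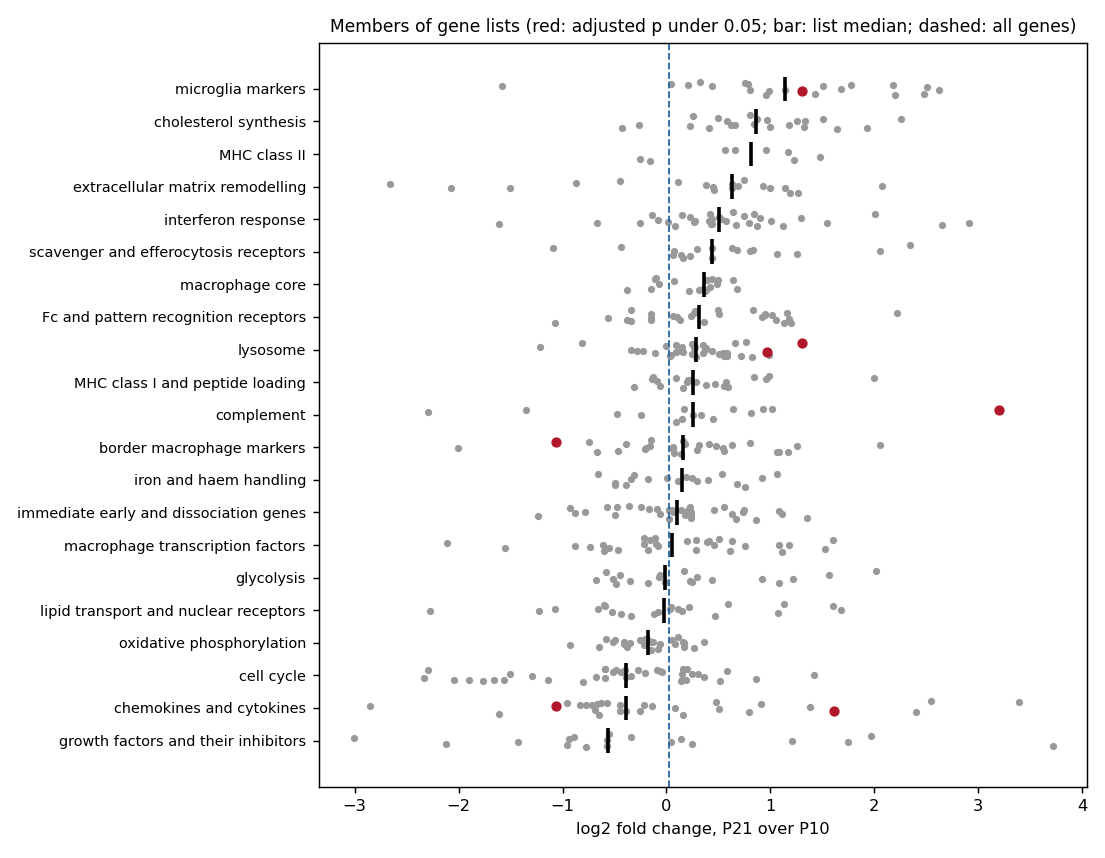
Log2 fold changes (P21 over P10) of the tested members of 21 gene lists, 1 point a gene and lists ordered by their median (black bar); red points passed the adjusted p of 0.05 and the dashed line is the median of all genes. Microglia markers have the highest median (1.14) and growth factors the lowest (−0.56).

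Immediate early and dissociation genes, which respond to handling of cells, had no call among 34 tested and a median of 0.10. Fos was at 6063, 9460 and 5255 CPM at P21 and at 3310, 4404 and 3763 CPM at P10, and Dusp1, a phosphatase of the same response, averaged 6134 ± 1186 CPM at P21 and 2899 ± 566 CPM at P10. The list sum was 40892, 57992 and 53191 CPM at P21 and 35283, 41653 and 37948 CPM at P10, so that the ages overlapped by P21 replicate 1. The part of this response in the genes that changed was not tested.

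Markers of other cells were measured in the same libraries, and no member of these 14 lists was called. Mobp, in the wider group above, is a member of the oligodendrocyte list. Its P21 values, like those of Mbp below, were highest in replicate 1. The 18 oligodendrocyte markers, of which 9 were tested, summed to 1449, 610 and 480 CPM at P21 and to 187, 179 and 174 CPM at P10. Mbp, the myelin basic protein gene, was at 864, 262 and 193 CPM at P21 and at 33.5, 54.4 and 41.4 CPM at P10 (log2 fold change 3.35 ± 0.60, edgeR adjusted p 0.214), whereas 1 of the 18 markers had no count at P21 and 3 had none at P10. Leptomeningeal fibroblast markers summed to 752, 390 and 558 CPM at P21 and to 458, 289 and 165 CPM at P10, with Ptgds, a prostaglandin D synthase gene, at 73.0% of the sum at P21 and 40.4% at P10. Choroid plexus markers summed to 146, 78.6 and 18.1 CPM at P21 and to 7.89, 7.53 and 11.9 CPM at P10, of which Ttr, the transthyretin gene, made up 135, 78.6 and 15.7 CPM at P21. Mural cell markers summed to 30.7, 16.2 and 23.8 CPM at P21 and to 142, 91.6 and 35.1 CPM at P10, and Vtn, the vitronectin gene, held 85.1% of that at P21 and 92.7% at P10. Dendritic cell markers summed to 235, 206 and 275 CPM at P21 and to 120, 144 and 136 CPM at P10, of which Siglech, also a member of the microglia list, held 161, 124 and 188 CPM at P21 and 56.8, 91.8 and 90.5 CPM at P10. For monocyte markers the sums were 26.9, 29.1 and 24.8 CPM at P21 and 10.4, 20.1 and 6.08 CPM at P10, with Ccr2 at 69.4% of the sum at P21 and 70.3% at P10. All of these lists except the fibroblast list had no overlap between the ages. Endothelial markers summed to 195, 187 and 122 CPM at P21 and to 260, 216 and 237 CPM at P10, of which Egfl7 held 77.2% at P21 and 89.6% at P10. T and NK cell markers summed to 131, 226 and 139 CPM at P21 and to 108, 97.1 and 108 CPM at P10, of which Cd4, which macrophages also express, held 131, 225 and 137 CPM at P21 and 108, 96.5 and 108 CPM at P10. B cell markers summed to 492, 488 and 421 CPM at P21 and to 364, 360 and 306 CPM at P10, of which Ighm, the mu heavy chain gene, held 76.3% at P21 and 65.0% at P10. Neutrophil markers summed to 36.7, 48.3 and 56.7 CPM at P21 and to 30.0, 31.6 and 24.4 CPM at P10, of which Csf3r, the receptor of granulocyte colony-stimulating factor, held 97.9% at P21 and 96.2% at P10. Astrocyte, neuron, mast cell and erythroid sums overlapped between the ages. The part of these cells in the results was not tested.

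Whether the step from P10 to P21 differed between mMΦ and microglia was tested in 1 fit of 18 libraries of the same batch, 3 of each population and age. Of 14477 genes, 55 (0.38%) had a different step, 49 with a more positive step in mMΦ (0.338%) and 6 with a more negative step. In all 49 the microglial step was below 0, and in 45 of them it passed the threshold itself, while the mMΦ steps of the 55 had a median of 0.20 and the microglial steps a median of −2.64. The genes below were chosen after their values were seen, as members of the lists except for Lyz2, Gpx3 and Sertad1.

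Lyz2 was the single gene called both here and in mMΦ alone. In mMΦ it averaged 11222 ± 476 CPM at P21 and 5893 ± 444 CPM at P10, and in microglia 303 ± 23.6 CPM at P21 and 525 ± 37.4 CPM at P10 (log2 difference of steps 1.76 ± 0.16, edgeR adjusted p 2.38e-05). Gpx3, a secreted glutathione peroxidase, averaged 787 ± 116 CPM at P21 and 328 ± 28.9 CPM at P10 in mMΦ, and 0.724 ± 0.596 CPM at P21 and 147 ± 13.5 CPM at P10 in microglia (8.93 ± 0.49). Apoe averaged 68771 ± 7034 CPM at P21 and 50035 ± 3901 CPM at P10 in mMΦ, and 2005 ± 152 CPM at P21 and 5568 ± 682 CPM at P10 in microglia (1.97 ± 0.16, edgeR adjusted p 1.40e-05). The ages were thus ordered oppositely in the 2 populations for these 3 genes. Other genes called in mMΦ were also higher at P21 in microglia, over the libraries of both batches. Means at P21 and P10 were 5369 and 3909 CPM for Cd81 and 2609 and 1517 CPM for Vsir. For Ctss they were 14491 and 10319 CPM, and for Ccl6 505 and 269 CPM. Cd81, Vsir and Ctss were higher in microglia than in mMΦ at both ages. Vcam1, C4b, Klf9 and Pf4 averaged at most 11.3 CPM in microglia at these ages.

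Border macrophage genes with a different step were lower in microglia than in mMΦ at both ages, by amounts that varied from gene to gene. Mrc1 in mMΦ averaged 3635 ± 374 CPM at P21 and 3464 ± 68.4 CPM at P10, and in microglia 31.3 ± 9.08 CPM at P21 and 348 ± 23 CPM at P10 (log2 difference of steps 3.58 ± 0.30, edgeR adjusted p 1.40e-05). Gas6, the ligand of Axl, averaged 2011 ± 397 CPM at P21 and 1800 ± 404 CPM at P10 in mMΦ, and 204 ± 3.97 CPM at P21 and 693 ± 72.3 CPM at P10 in microglia (1.96 ± 0.28). Igfbp4, which encodes a binding protein of insulin-like growth factors, averaged 1164 ± 412 CPM at P21 and 1952 ± 277 CPM at P10 in mMΦ, and 88.2 ± 8.48 CPM at P21 and 613 ± 40.5 CPM at P10 in microglia. Dab2, an endocytic adaptor, had a difference of 1.51 ± 0.27. Folr2, a folate receptor, averaged 226 ± 28.2 CPM at P21 and 200 ± 16.9 CPM at P10 in mMΦ, and 8 reads in all were counted over the 3 microglial libraries at P21. Siglec1, a sialic acid receptor, had 3 such reads and Stard4, a sterol carrier, had 0, so that their fitted differences depend on the prior count.

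Of the cell cycle genes, Cdk1, Mcm6, Cenpf, Ube2c, Ccnb2 and Pclaf had a different step. Cdk1, the kinase of mitotic entry, averaged 59.3 ± 8.58 CPM at P21 and 95.1 ± 25.7 CPM at P10 in mMΦ, and 19.1 ± 4.25 CPM at P21 and 233 ± 21.1 CPM at P10 in microglia (2.96 ± 0.32, edgeR adjusted p 2.94e-04). Mcm6, a subunit of the replicative helicase, averaged 86.0 ± 19.0 CPM at P21 and 66.9 ± 3.00 CPM at P10 in mMΦ, and 24.2 ± 4.48 CPM at P21 and 145 ± 14.9 CPM at P10 in microglia (2.98 ± 0.53). The median step over 40 cell cycle genes was −0.32 in mMΦ, −5.06 in microglia and −2.16 in pvMΦ.

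The next 6 genes, Fos, Jun, Egr1, Zfp36, Ier3 and Hspa1a, belong to the immediate early and dissociation list. Egr1 averaged 2805 ± 884 CPM at P21 and 1920 ± 517 CPM at P10 in mMΦ, and 356 ± 151 CPM at P21 and 1207 ± 227 CPM at P10 in microglia (2.34 ± 0.43, edgeR adjusted p 0.0238). In the 2 microglial libraries of P21 from the other sequencing batch, S276, Egr1 was at 4291 and 3215 CPM, above P10. With all 45 libraries and a term for batch the adjusted p of these 6 genes was between 0.376 and 1, and for Egr1 1 (log2 difference 0.88). In that fit 31 genes had a different step from microglia, 21 of them among the 55. Of the 28 genes in the plot of steps, 9 stayed under the threshold there, namely Mrc1, Folr2, Igfbp4, Lyz2, Gpx3, Cdk1, Cenpf, Pclaf and Stard4. The other 19 did not pass it. Beside the 6 above these were Apoe, Ctsb and Ube2c (edgeR adjusted p 0.0689 each), Gas6 (0.153), Fcrls (0.157), Ccnb2 (0.210), Ifi27l2a (0.328), Siglec1 (0.382), Egfl7 (0.431), Cd36 (0.504), Dab2 (0.527), Mcm6 (0.697) and Sertad1 (1). For Sertad1 the direction turned, with a log2 difference of −0.17 there against 1.27 in the 18 libraries. When each of the 18 libraries was left out in turn, 12 of the 28 were called every time, whereas Egfl7 was called in 3 of the 18 fits, Stard4 in 4, and Ccnb2, Fcrls, Ier3 and Sertad1 in 5 each.

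**Figure D5:**
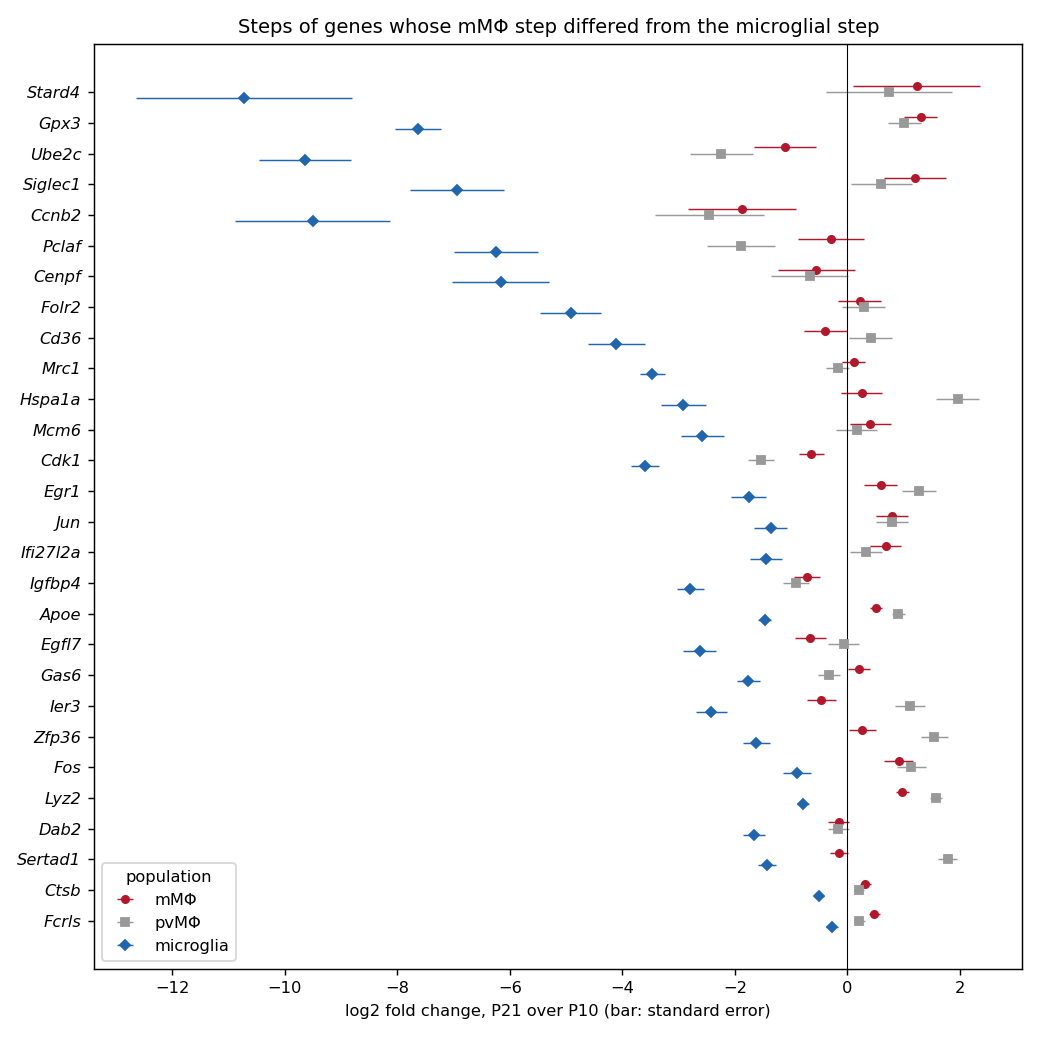
Steps from P10 to P21 (log2 fold change, P21 over P10, with SE) in mMΦ (red circles), pvMΦ (grey squares) and microglia (blue diamonds) for 28 genes whose mMΦ step differed from the microglial step. All are list members except Lyz2, Gpx3 and Sertad1. The mMΦ steps lie near or above 0 for most genes, such as Mrc1 (0.11) and Lyz2 (0.98), and all microglial steps lie below 0; steps of genes with few or no reads in microglia at P21 (Stard4, Siglec1, Folr2, Ube2c, Ccnb2) depend on the prior count.

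Between mMΦ and pvMΦ, which share the P10 and P21 ages, batch and mMΦ libraries with the comparison above, 4 of 14477 genes (0.0276%) had a different step, and they are named after their values were seen. Sertad1, a transcriptional cofactor, averaged 558 ± 63.6 CPM at P21 and 639 ± 91.2 CPM at P10 in mMΦ, and 327 ± 81.8 CPM at P21 and 95.5 ± 1.36 CPM at P10 in pvMΦ (log2 difference −1.93 ± 0.23, edgeR adjusted p 0.00239). Nfkbia, the inhibitor of NF-κB, averaged 1558 ± 209 CPM at P21 and 2176 ± 67.1 CPM at P10 in mMΦ, and 946 ± 44.1 CPM at P21 and 382 ± 20.3 CPM at P10 in pvMΦ (−1.75 ± 0.21). Ifrd1, an interferon-related transcriptional regulator, had a difference of −2.01 ± 0.29. Cds1, a phospholipid synthesis enzyme, had 3 reads in all in the pvMΦ libraries at P21, so that its fitted difference of 10.53 depends on the prior count. With all 45 libraries and a term for batch none of these 4 passed the threshold (edgeR adjusted p 0.284 for Cds1, 0.422 for Nfkbia, 0.584 for Sertad1 and 0.601 for Ifrd1), and another gene was called; 1169 genes had an unadjusted p under 0.05. Ifrd1 was called in 7 of the 18 fits that left out 1 library, and the other 3 in all 18. Without pvMΦ replicate 3 at P21 the count of genes was 405, without mMΦ replicate 3 at P21 it was 18, and without pvMΦ replicate 1 at P21 it was 8.

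None of the 10 genes called in mMΦ had a step that differed from that of pvMΦ at this threshold. Vcam1 had a step of 3.39 ± 0.61 in mMΦ and 4.01 ± 0.62 in pvMΦ (log2 difference −0.62 ± 0.78, edgeR adjusted p 0.945). For Pf4 the steps were −1.02 ± 0.31 in mMΦ and −0.10 ± 0.31 in pvMΦ (−0.93 ± 0.43, edgeR adjusted p 0.603). For Vsir they were 1.29 ± 0.13 in mMΦ and 0.90 ± 0.13 in pvMΦ (0.39 ± 0.18, edgeR adjusted p 0.602). Lyz2 had steps of 0.98 ± 0.11 in mMΦ and 1.57 ± 0.11 in pvMΦ (−0.60 ± 0.15, edgeR adjusted p 0.281). A p that misses the threshold does not show that the steps are alike.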

How the data were processed

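Per the labels' protocols, cells were sorted into a stabilising reagent and their RNA was copied with an ultra-low-input, full-length kit that keeps no strand, so that counts of overlapping or antisense genes are uncertain. The deposited table holds the authors' counts per gene as whole numbers; per the submitters' processing notes bcl2fastq 2.18, STAR 2.7.8a and featureCounts 2.0.2 were used. Not given in the sources used here are the build, the gene models and the strand mode.

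From these counts, genes were kept by filterByExpr (minimum count 10, minimum total 15), scaled by TMM and tested with edgeR 4.0.16 (quasi-likelihood F test) in R 4.3.3 (Benjamini-Hochberg, adjusted p under 0.05) on the 6 libraries alone, because scatter differed between groups, or on 18 libraries for differences of steps. P21 and P10 themselves differed in scatter, and each edgeR fit, also that of 18 libraries, shared its variance estimate for a gene across its groups. CPM values were computed here with TMM factors over 45 libraries. Each SE of an edgeR log2 value was computed back from the test, as the absolute log2 value over the square root of F. P-values measure the spread between these samples. That each is 1 mouse, as the series' design gives it, could not be checked for P21 replicate 1, which held both Xist and Y-linked transcripts.

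Named are up to 14 called genes in each direction with a mean of at least 5 CPM in the higher group and no overlap between ages (unnamed models and mitochondrial, ribosomal, haemoglobin, immunoglobulin and sex-chromosome marker genes left out), up to 4 called and 2 uncalled members of each list, and 22 genes followed whatever their test; others are said to be chosen after their values were seen. The members and all 36 lists were chosen with earlier results of these data known. Alternatives were DESeq2 1.42.0 size factors and Wald test, limma 3.58.1 voom with quality weights, 2 other filters, a replicate block, other sets of libraries, and leaving out each library. Fits were also run on simulated counts, whose outcome is not given here. The simulation gave a gene the same dispersion at both ages, unlike these libraries, so it cannot show how the fits handle the wider scatter at P21. Results for some genes are not reported here.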

Additional observations from a re-analysis of the deposited data

Results flagged for a closer look

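The genes below stood out because the test of the difference itself separated the step from P10 to P21 in mMΦ from that in another population (edgeR on 18 libraries). Values are log2 differences, mMΦ step minus microglial step unless said otherwise. No explanation was tested.

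Border macrophage genes were Mrc1 (3.58), Folr2 (5.13), Dab2 (1.51), Gas6 (1.96), Siglec1 (8.15) and Igfbp4 (2.08). Cell cycle genes were Cdk1 (2.96), Mcm6 (2.98), Cenpf (5.60), Pclaf (5.95), Ccnb2 (7.64) and Ube2c (8.53). Immediate early and dissociation genes were Fos (1.81), Jun (2.16), Egr1 (2.34), Zfp36 (1.89), Ier3 (1.96) and Hspa1a (3.17). Lipid and sterol genes were Apoe (1.97), Cd36 (3.71) and Stard4 (11.9). The rest were Lyz2 (1.76), Ctsb (0.821), Fcrls (0.747), Ifi27l2a (2.12), Egfl7 (1.97), Gpx3 (8.93) and Sertad1 (1.27).

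Against pvMΦ, the mMΦ step minus the pvMΦ step was −2.01 for Ifrd1, −1.93 for Sertad1, −1.75 for Nfkbia and 10.5 for Cds1. With all 45 libraries and a term for batch, 19 of the 28 differences from microglia and all 4 from pvMΦ lost their call, and that of Sertad1 from microglia turned to −0.17.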

How the results depend on the processing

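Genes called between P21 and P10 numbered 10 in the 6 libraries and 10 with DESeq2 size factors, 46 without a low-count filter, 17 with a stricter one, 30 with limma voom, 316 with the Wald test of DESeq2 (222 higher, 94 lower), 61 in the 15 mMΦ libraries (52 higher, 9 lower; 8 of the 10 among them) and 15 in all 45 libraries (all higher; 5 of the 10 among them). All 10 genes were called in each of the first 5 of these settings. With all 45 libraries Pf4, Klf9, C4b, Lyz2 and Ctss lost their call (edgeR adjusted p 0.835, 0.797, 0.764, 0.359 and 0.0946). In the 15 mMΦ libraries Klf9 and C4b lost theirs (edgeR adjusted p 0.135 and 0.0917). With the replicate number as a block 0 were called (edgeR, 705 at an unadjusted p under 0.05). Deviations of same-numbered samples had correlations of 0.0047, −0.026 and −0.015, and pairs of unlike number likewise lay near 0 (−0.040 to 0.046). With 3 libraries at each age, these correlations cannot decide whether samples of equal number share more than the number. Leaving out each library in turn gave 0 calls each time (edgeR, 647 to 1972 at an unadjusted p under 0.05).

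Different steps against microglia numbered 55, and 413 with the Wald test, 85 with voom, 31 with all 45 libraries, 47 with the replicate block and 20 to 92 when each library was left out; the lowest, 20, 21 and 24, came without mMΦ replicates 1, 2 and 3 at P10, then 25, 26 and 32 without microglial replicates 3, 1 and 2 at P10, 34 and 36 without pvMΦ replicates 3 and 1 at P10, and the highest, 92, without pvMΦ replicate 1 at P21. Against pvMΦ they numbered 4, and 14 without a filter, 8 with a stricter one, 263 with the Wald test, 1 with all 45 libraries (none of the 4), 4 with the block and 3 to 405 when each library was left out. The cause was not tested.

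Of the called differences, that of Sertad1 from microglia turned, to −0.17 with all 45 libraries. Among fold changes in mMΦ the direction turned only for genes that were not called. Aldoa, at −0.01, was 9.79e-05 with DESeq2 size factors, 1.5e-04 with the Wald test, 0.076 with voom and −0.18 to 0.18 when each library was left out. Leaving out each library gave −0.011 to 0.15 for Mrc1, −0.0019 to 0.16 for Bst2, −0.019 to 0.31 for Gas6, −0.81 to 0.10 for Ccl7, −0.071 to 0.15 for Atp5b and −0.012 to 0.21 for Atp5a1. For single genes, 907 of the fold changes under other settings kept their direction and their side of the threshold, 96 passed it newly and 77 no longer passed. Of the differences of steps, 601 kept both, 223 no longer passed and 1 turned. Libraries scattered far beyond counting error, more so at P21, so that the errors reflect scatter more than depth.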

Other observations

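2 genes outside the lists were looked up after their values were seen, since Klf9 and Tsc22d3 are known targets of the glucocorticoid receptor. Fkbp5, a chaperone cofactor of that receptor, averaged 215 CPM at P21 and 8.00 CPM at P10 (log2 fold change 4.75 ± 1.22, edgeR adjusted p 0.347), with no overlap between the libraries. Sgk1, a serine kinase, averaged 204 CPM at P21 and 92.0 CPM at P10 (1.15 ± 0.28, edgeR adjusted p 0.335), also without overlap. Neither passed the threshold, nor did Tsc22d3 in the 6 libraries. Of all genes tested, 7.64% were likewise higher at P21 without overlap. Known targets of the receptor were not looked up as a set, so how many others rose or fell is not given. Over both batches, Tsc22d3 averaged 1282 CPM at P21 and 215 CPM at P10 in pvMΦ. In microglia it averaged 456 CPM at P21 and 171 CPM at P10. Klf9 averaged 25.2 CPM at P21 and 1.99 CPM at P10 in pvMΦ, so these rises were not particular to mMΦ. Hormone exposure was not measured.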
